A study of Mus musculus with 6 samples.

Results

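*Nppa*, *Nppb* and *Ankrd1*, 3 genes commonly read as marks of cardiac wall stress, were followed in areas of mouse heart that differed in Atf3. They were chosen by gene symbol, and each has 1 row among the 17145 genes of the deposited count table. All 3 were among the 7665 genes that had at least 10 unique molecular identifiers (UMIs) over the 6 libraries and were tested. *Nppa* would have passed that minimum on the 11 UMIs of the Atf3_low libraries alone.

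*Nppa* encodes atrial natriuretic peptide and *Nppb* encodes brain natriuretic peptide, hormones that cardiomyocytes release when the wall is stretched and that lower blood volume and pressure through the guanylate cyclase receptor Npr1. After birth *Nppa* is mostly an atrial gene, and its return in ventricular cardiomyocytes is a classical mark of hypertrophy and failure, whereas *Nppb* is also a widely used marker of heart failure. *Ankrd1* encodes a cardiac ankyrin repeat protein that binds titin in the sarcomere, is also found in the nucleus, and is induced by mechanical load.

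The libraries came from female-labelled FS6KD mice, Ndufs6 knockdown animals in which a gene trap (*Ndufs6*gt/gt, on a mixed C57BL/6J and 129/Ola background) lowers a subunit of respiratory complex I, mainly in the heart. The age of the mice used for these libraries was not given in the sources used here. In fresh-frozen heart sections, labelled as cardiomyocytes, areas within Atf3-positive clusters were selected by anti-Atf3 immunostaining as Atf3_high or Atf3_low, and photo-isolation chemistry uncaged primers by ultraviolet light so that cDNA of those areas alone was amplified into CEL-seq2 libraries. The comparison asks how areas with more Atf3 differ from areas with less. Each group had 3 libraries, both groups carried the knockdown, no wild-type library of this kind was analysed here, and an irradiated area can include other cell types. The study calls the libraries biological replicates, but the labels tie none to an animal, and whether same-numbered high and low libraries share a heart was not stated. The p-values therefore measure the spread between these libraries.

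CEL-seq2 tags the 3′ end of a transcript and 1 UMI stands for 1 molecule, so levels were compared between genes without scaling for length. The Atf3_high libraries held 184872, 81117 and 210588 UMIs (replicates 1, 2 and 3) and the Atf3_low libraries 171536, 125522 and 81917. Levels are CPM, the UMI count scaled to a common, normalized library size, in which 1 UMI was worth from 4.66 CPM in the deepest library to 13.6 CPM in Atf3_low replicate 3. The intervals given for single libraries are exact Poisson intervals at 95% and cover counting error only.

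Atf3_high replicate 2 stood apart from the other 5 libraries. It held 8 UMIs of *Ddx3y* and 8 of *Eif2s3y*, both on the Y chromosome, and 0 of *Xist*, the RNA of the inactive X chromosome, against its female label. Elsewhere *Xist* had from 3 to 26 UMIs and the Y-linked genes had 1 UMI in all. By total UMIs it was also the shallowest library, with 81117 against 81917 in Atf3_low replicate 3. In it 3 UMIs, the limit for a gene without a UMI, came to 36.2 CPM, against 40.9 CPM in Atf3_low replicate 3.

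The targeted gene could not check the labels. *Ndufs6* was counted at 2, 0 and 3 UMIs in Atf3_high and at 0 in all 3 Atf3_low libraries, too few to test. *Atf3* itself, whose protein chose the areas, had 50, 7 and 25 UMIs in Atf3_high and 35, 0 and 8 in Atf3_low. Its mRNA levels overlapped between the groups (log2 fold change 0.40, standard error 0.65).

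Of the natriuretic peptides, *Nppa* was the gene that separated the groups. It was counted at 31, 63 and 24 UMIs in Atf3_high against 2, 4 and 5 in Atf3_low. The corresponding levels were 158, 760.3 and 112 CPM in Atf3_high and 13.5, 33.4 and 68.1 CPM in Atf3_low. Every Atf3_high library lay above every Atf3_low library, and Atf3_high replicate 2 was far above the rest. Only this library was set off from all others by its counting interval, of 584 to 973 CPM. The next levels down could not be ordered at this depth. The interval of Atf3_high replicate 1 was 107 to 224 CPM and that of replicate 3 was 71.6 to 166 CPM, while Atf3_low replicate 3 ranged from 22.1 to 159 CPM on its 5 UMIs and so reached into both. Within the Atf3_low group, the intervals of replicates 1 (1.63 to 48.7 CPM), 2 (9.09 to 85.4 CPM) and 3 overlapped.

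As a mean, *Nppa* stood at 343 ± 362 CPM in Atf3_high and 38.3 ± 27.6 CPM in Atf3_low (SD, n = 3 each). Without Atf3_high replicate 2 the mean of that group was 134.7 ± 32.3 CPM (n = 2). By edgeR's quasi-likelihood test this was a log2 fold change of 3.22 (standard error 0.69, 95% interval 1.84 to 4.60), or 9.31-fold (3.57 to 24.3), with a Benjamini-Hochberg adjusted p of 0.0345 over all genes tested. It had the sixth smallest p of the table. Of the 3 genes, 1 was called at an adjusted p under 0.05, as were 7 of the 7665 genes tested (0.0913%), 3 of them higher in Atf3_high (0.0391%). At an unadjusted p under 0.05 the share over all genes was 5.79%. The same gene was the 1 of the 3 whose groups did not overlap, against 7.07% of all genes with every Atf3_high library above and 11% with no overlap in either direction.

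The size of the difference rested on Atf3_high replicate 2. Without it the log2 fold change of *Nppa* was 1.91 (standard error 0.77), with an unadjusted p of 0.0182 and an edgeR adjusted p of 0.938. The remaining Atf3_high libraries still lay above the 3 Atf3_low libraries. The call was also lost without Atf3_high replicate 1 (3.59, adjusted p = 0.066) and without Atf3_low replicate 1 (2.67, 0.463), 2 (3.13, 0.22) or 3 (3.78, 0.273). It held without Atf3_high replicate 3 (3.66, adjusted p = 0.0179).

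*Nppb* was an abundant gene in both kinds of area. It had 360, 85 and 210 UMIs in Atf3_high, or 1829, 1026 and 978 CPM, and 191, 136 and 106 UMIs in Atf3_low, or 1287, 1135 and 1444 CPM. The groups overlapped, with Atf3_high holding both the highest library, replicate 1, and the lowest, replicate 3. Means were 1278 ± 478 and 1288 ± 154.5 CPM (SD, n = 3 each). The log2 fold change was −0.01 (standard error 0.36, 95% interval −0.73 to 0.71, edgeR adjusted p = 0.999), so that a fold between 0.604 and 1.64 lay within the interval. Without Atf3_high replicate 2 it was 0.11, and scaling by library size alone gave 0.21.

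*Ankrd1*, the sarcomeric and nuclear load sensor of the 3, was the most abundant. Its UMIs numbered 1144, 274 and 741 in Atf3_high and 640, 531 and 222 in Atf3_low. These were levels of 5813, 3307 and 3452 CPM in Atf3_high and 4313, 4430 and 3023 CPM in Atf3_low. The groups again overlapped, and Atf3_high replicate 1 was once more the highest library. Means were 4190 ± 1407 CPM and 3922 ± 780.3 CPM (SD, n = 3 each). With a log2 fold change of 0.10 (standard error 0.32, 95% interval −0.55 to 0.74), no difference was detected by edgeR (adjusted p = 0.996). The value was 0.23 without Atf3_high replicate 2, −0.21 without Atf3_high replicate 1 and −0.08 without Atf3_low replicate 3.

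**Figure D1:**
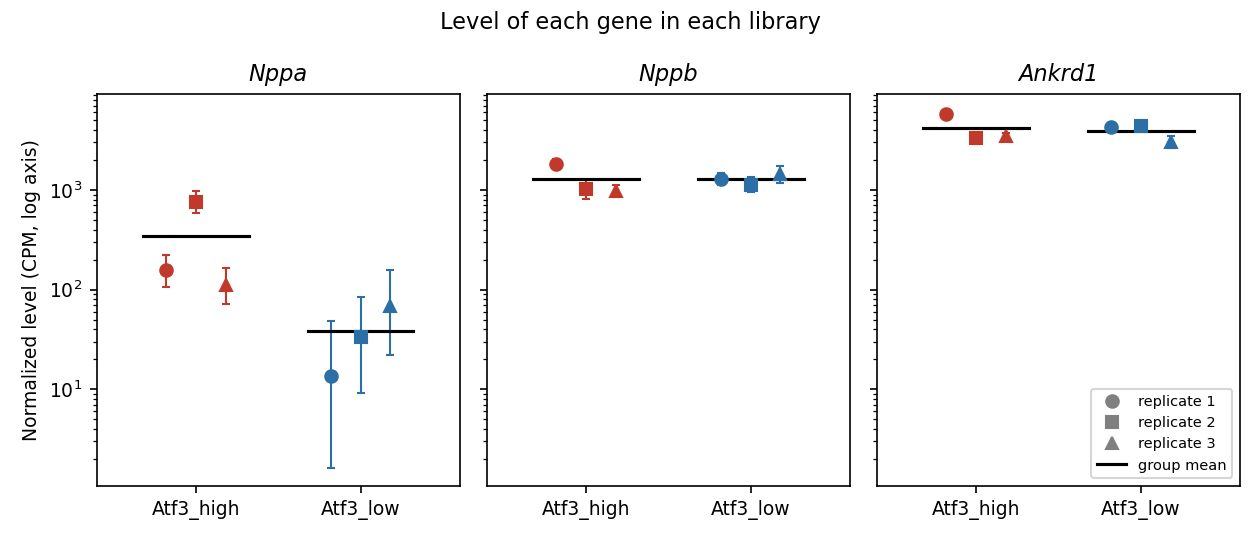
Normalized level (CPM, log axis) of *Nppa*, *Nppb* and *Ankrd1* in the 3 Atf3_high and 3 Atf3_low libraries, with exact Poisson 95% intervals as bars, marker shapes for replicate numbers and lines at the group means. *Nppa* ranges from 112 to 760.3 CPM in Atf3_high and from 13.5 to 68.1 CPM in Atf3_low, while the groups overlap for *Nppb* and *Ankrd1*.

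In every library *Ankrd1* had the highest level of the 3, *Nppb* came next and *Nppa* was the lowest. Over all genes, by mean CPM, *Ankrd1* ranked 31, *Nppb* 70 and *Nppa* 579. Within single libraries *Ankrd1* ranked between 18 and 38 and *Nppb* between 45 and 91. By contrast, *Nppa* ranked 778, 114 and 1136 in the Atf3_high libraries and 5735, 3679 and 1779 in the Atf3_low libraries. In Atf3_high replicate 2 the intervals of *Nppa* and *Nppb* (819 to 1268 CPM) overlapped, so their order was not resolved there, whereas elsewhere the 3 levels were set apart by more than counting error.

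The spread between replicates depended on single libraries. The coefficient of variation of *Nppa* was 105.5% in Atf3_high and 72.2% in Atf3_low. For *Nppb* it was 37.4% and 12.0%, and for *Ankrd1* 33.6% and 19.9%. Over the 2 Atf3_high libraries left without replicate 2 it was 24.0% for *Nppa*, 42.9% for *Nppb* and 36.0% for *Ankrd1*, and without replicate 1 it was 105% for *Nppa*, 3.36% for *Nppb* and 3.03% for *Ankrd1*. Across the 6 libraries the log2 levels of *Nppb* and *Ankrd1* had a Pearson correlation of 0.594 (Spearman 0.314), against −0.168 (−0.143) for *Nppa* with *Nppb* and −0.238 (−0.143) for *Nppa* with *Ankrd1*. Without Atf3_high replicate 2 (n = 5) the 3 Pearson correlations were 0.523, 0.29 and 0.0864, and without Atf3_high replicate 1 (n = 5) they were −0.0601, −0.551 and −0.652. These are descriptions over few points that share the library sizes.

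The ratio of the natriuretic peptides needs no normalization, since both counts come from the same library. *Nppa* made up 7.93%, 42.6% and 10.3% of the summed *Nppa* and *Nppb* UMIs in Atf3_high. In Atf3_low its share was 1.04%, 2.86% and 4.51%. Every Atf3_high library was above every Atf3_low library, and in Atf3_high replicate 2 the peptides came close to parity. Exact Clopper-Pearson intervals at 95% were 5.45 to 11.1%, 34.5 to 51.0% and 6.68 to 14.9% in Atf3_high and 0.126 to 3.69%, 0.784 to 7.15% and 1.48 to 10.2% in Atf3_low, so that only replicate 2 of Atf3_high was clear of all 3 Atf3_low intervals. Put as molecules, 1 *Nppa* UMI was matched by 11.6, 1.35 and 8.75 *Nppb* UMIs in Atf3_high and by 95.5, 34.0 and 21.2 in Atf3_low.

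On the log2 scale, with 0.5 added to each count, the ratio of *Nppa* to *Nppb* averaged −2.35 ± 1.68 in Atf3_high and −5.15 ± 1.01 in Atf3_low (SD, n = 3 each). The difference of 2.80, or 6.98-fold, gave a two-sided exact permutation p of 0.1, the smallest that 3 libraries against 3 can reach. Without Atf3_high replicate 2 the difference was 1.84 (exact permutation p = 0.2). *Ankrd1* and *Nppb* kept a steadier proportion, with 3.18, 3.22 and 3.53 *Ankrd1* UMIs per *Nppb* UMI in Atf3_high and 3.35, 3.90 and 2.09 in Atf3_low. That is 3.31 ± 0.191 against 3.12 ± 0.928 (SD, n = 3 each), with the groups overlapping.

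**Figure D2:**
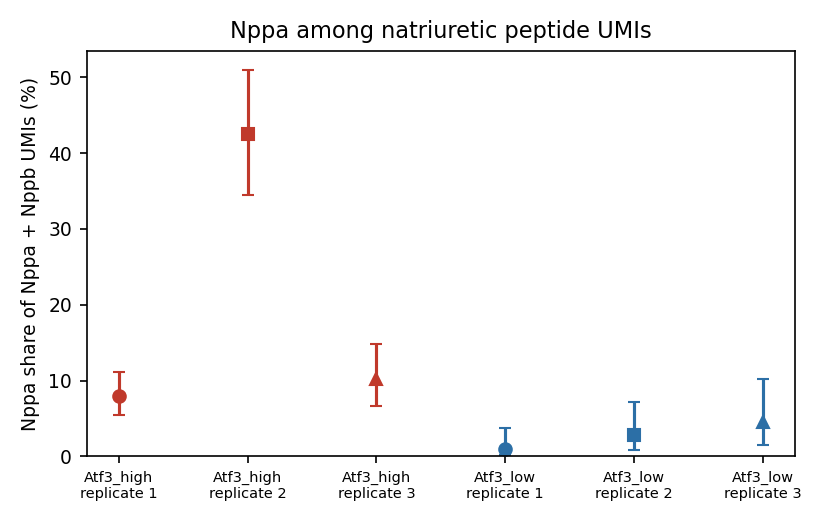
Share of *Nppa* in the summed *Nppa* and *Nppb* UMIs (percent) of each library, with exact Clopper-Pearson 95% intervals as bars. The Atf3_high libraries lie at 7.93%, 42.6% and 10.3%, above the Atf3_low libraries at 1.04%, 2.86% and 4.51%.

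Depth differed between libraries, so counts were also drawn down at random to the 81117 UMIs of the shallowest. *Nppa* then had 14, 63 and 11 UMIs in Atf3_high and 1, 2 and 5 in Atf3_low. *Nppb* had 147, 85 and 87 against 97, 99 and 105, and *Ankrd1* had 488, 274 and 302 against 314, 339 and 219. The order of the libraries for *Nppa* was the same as by CPM. Its log2 fold change was 3.21 at this depth, with an edgeR adjusted p of 0.0743.

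**Figure D3:**
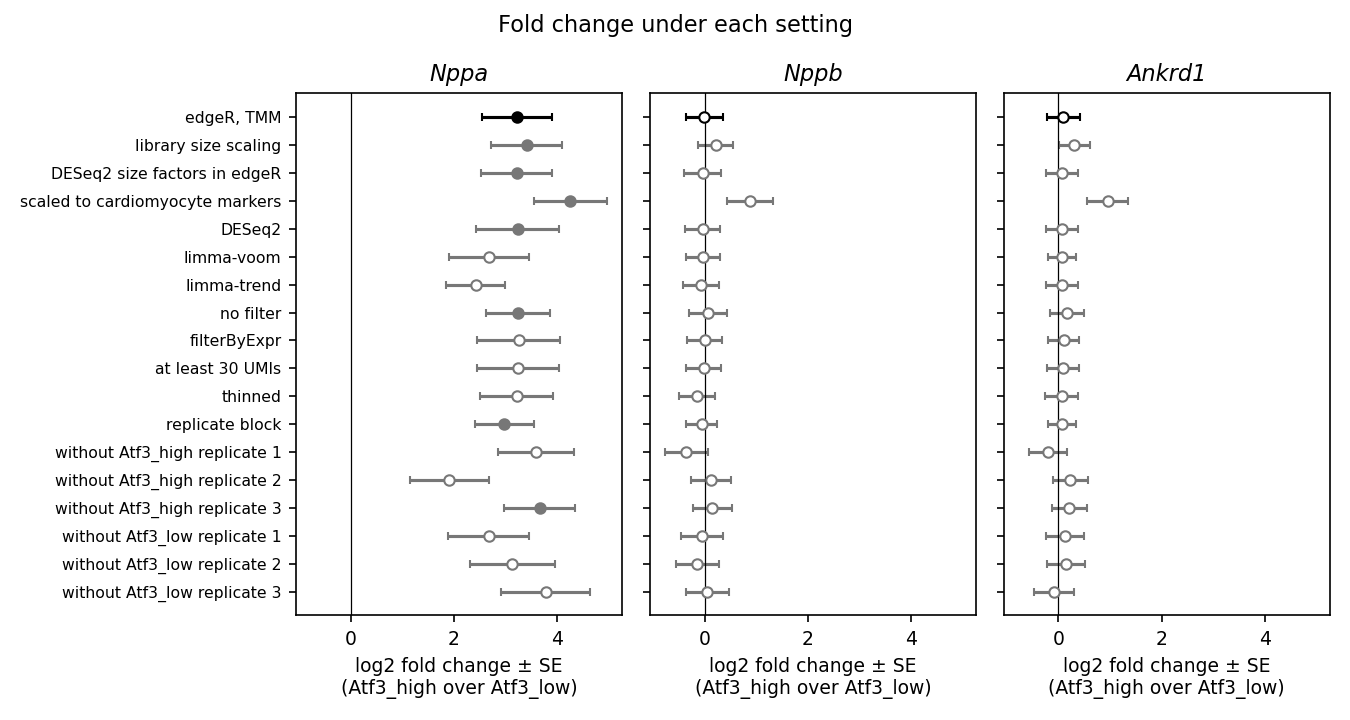
Log2 fold change (Atf3_high over Atf3_low, bars are standard errors) of the 3 genes under the main test and 17 alternatives, with filled points at an adjusted p under 0.05. *Nppa* lies above 0 throughout, from 1.91 to 4.26, while *Nppb* (−0.36 to 0.88) and *Ankrd1* (−0.21 to 0.95) fall on both sides of 0.

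The 2 groups also differed in the make-up of their libraries. Mitochondrially encoded genes held 17.1%, 21.2% and 16.9% of UMIs in Atf3_high and 21.9%, 21.9% and 22.6% in Atf3_low, without overlap. The TMM factors were 1.105, 1.06 and 1.06 against 0.889, 0.987 and 0.918, higher in every Atf3_high library. Cardiomyocyte marker levels varied as well. Of 14 cardiomyocyte marker genes 13 were in the table (*Mb* has no row and was not analysed here), led in UMIs by *Tnnt2*, and none of the 13 was at 0 in every library. Their summed UMIs made up 3.02%, 2.56% and 5.03% of the Atf3_high libraries and 4.62%, 5.21% and 5.64% of the Atf3_low libraries. Atf3_high replicate 2, the library richest in *Nppa*, had the lowest share. All 13 genes had a log2 fold change below 0 (median −0.40, against 0.11 over all genes tested). With library size scaling 3 of the 13 were above 0 (median −0.22), as were 3 without Atf3_high replicate 1 (−0.24), and the median was −0.98 without Atf3_high replicate 3 and −0.69 without Atf3_low replicate 1. Here fewer cells of a type and less RNA per cell cannot be told apart. *Tpm1* (−0.52) and *Tnnt2* (−0.40) were among the highest by CPM and did not pass the test. *Myh6*, the adult alpha myosin heavy chain, was called, at 3044 ± 1335 CPM in Atf3_high and 10670 ± 1592 CPM in Atf3_low (log2 fold change −1.81, standard error 0.32, edgeR adjusted p = 0.00512). The call was lost without Atf3_high replicate 1 (−1.58, adjusted p = 0.209) or 2 (−1.72, 0.115), without Atf3_low replicate 1 (−1.85, 0.0508) or 3 (−1.71, 0.273), and when scaled to cardiomyocyte markers, a list that holds *Myh6* (−1.08, 0.193). In the main test *Actc1*, *Atp2a2*, *Pln* and *Ryr2* were lower at an unadjusted p only, and *Actc1* (−1.14) was called with the replicate number as a block (−1.20, adjusted p = 0.00858). With *Myh6*, 5 of the 13 were lower at an unadjusted p under 0.05 in edgeR, as were 172 of all 7665 genes tested.

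Relative to these markers, *Nppa* stood at 55.5, 302.9 and 22.7 UMIs per 10000 cardiomyocyte marker UMIs in Atf3_high and at 2.52, 6.12 and 10.8 in Atf3_low. The groups did not overlap on this scale either. *Nppb* came to 645, 409 and 198 in Atf3_high and 241, 208 and 230 in Atf3_low, with Atf3_high replicates 1 and 2 above, and replicate 3 below, all Atf3_low libraries. *Ankrd1* came to 2049, 1317 and 700 against 807, 813 and 481, again overlapping. Scaled in this way, the log2 fold changes were 4.26 for *Nppa*, 0.88 for *Nppb* and 0.95 for *Ankrd1*, on a scale that moved the median of all genes to 0.87. Of these *Nppa* alone passed an adjusted p of 0.05 in edgeR (1.77e-04).

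Since *Nppa* is abundant in atria, atrial markers were read beside it. Of 14 such genes, 8 were in the table, and defining genes such as *Myl7*, *Sln*, *Bmp10*, *Mybphl* and *Upk3b* have no row and were not analysed here. The 8 genes summed to 40, 7 and 20 UMIs in Atf3_high and to 13, 17 and 12 in Atf3_low. As shares of all UMIs these were 0.0216%, 0.00863% and 0.0095% in Atf3_high and 0.00758%, 0.0135% and 0.0146% in Atf3_low. Atf3_high replicate 2, with its 63 *Nppa* UMIs, lay within the range of the Atf3_low libraries. The most abundant of them was *Nr2f2* (10, 1 and 5 against 6, 10 and 3 UMIs), and *Myl4*, the atrial light chain, had 5 UMIs in all. Of the 5 tested genes 4 had log2 fold changes above 0, *Nr2f1* (0.75) and *Kcna5* (2.71) among them, with a median of 0.75, and none passed the test. *Kcna5* (5, 2 and 6 against 0, 0 and 1 UMIs) had every Atf3_high level above every Atf3_low level, as *Nppa* did, and 1 untested gene, *Kcnj3* (7 UMIs in all), had every Atf3_high level below. Over all genes tested, which leave out *Kcnj3*, 7.07% had every Atf3_high level above and 11% had no overlap in either direction. The median of the atrial genes without Atf3_high replicate 1 was −0.51, over the 2 then tested.

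Ventricular markers were present in every library, at 1380, 715 and 3385 UMIs in Atf3_high and 1874, 1753 and 1494 in Atf3_low over 10 genes. *Myl2*, the ventricular light chain, led them at 7132 ± 2601 against 10350 ± 3232 CPM, followed by *Myl3* and *Fhl2*, and 6 of the 7 tested genes were below 0 (median −0.61, and from −1.57 to −0.39 leaving out 1 library). Conduction system markers, 8 of 11 in the table and led by *Irx3*, *Cacna1g* and *Etv1*, summed to 15, 6 and 11 UMIs in Atf3_high and 14, 10 and 2 in Atf3_low. *Isl1* and *Ntm* of that list have no row and were not analysed here.

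Among markers of other cells, those of fibroblasts were set beside *Nppa*. The 10 genes, all in the table and all tested, summed to 0.600%, 0.334% and 0.213% of UMIs in Atf3_high and 0.232%, 0.242% and 0.139% in Atf3_low. Atf3_high replicate 1 was the highest library, the *Nppa*-rich replicate 2 came next and also lay above every Atf3_low library, and replicate 3 lay within the range of the Atf3_low group. Of the 10, 9 had log2 fold changes above 0 (median 1.03). Without Atf3_high replicate 1 the median was 0.08, with 5 of 9 tested genes above 0 and 0 at an unadjusted p under 0.05 in edgeR. In the main test, at an unadjusted p only, *Col3a1*, the most abundant (1.09), *Col1a2* (1.33) and *Postn* (1.59) were higher, while *Gsn* stood at −0.26. Thus 3 of the 10 were higher at an unadjusted p under 0.05 in edgeR, as were 272 of all 7665 genes tested. Of the 10, 2 were called when scaled to cardiomyocyte markers, *Postn* among them (2.53, edgeR adjusted p = 0.0332), against 18 of all 7665 genes tested. With the replicate number as a block 2 of the 10 were called, against 24 of all 7665. The part of cardiomyocyte, fibroblast and mitochondrial content in the *Nppa* difference was not tested.

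Natriuretic peptides are cut from their precursors by proteases and act through receptors whose cyclic GMP is broken down by phosphodiesterases. Of 14 genes of this pathway 10 were in the table and 6 were tested, with *Nppc*, *Ostn*, *Prkg1* and *Pde2a* having no row and not analysed here. None of the 6 passed the test. *Pde9a*, a phosphodiesterase too rare to test (2, 3 and 1 against 0 UMIs in all 3), had every Atf3_high level above every Atf3_low level. That held for 7.07% of all genes tested, which leave out *Pde9a*. The share among genes as rare as *Pde9a* was not computed. *Furin*, the protease that trims pro-brain natriuretic peptide, was at 88.4 ± 60.6 against 124.5 ± 60.7 CPM (log2 fold change −0.45). *Corin*, the protease that activates pro-atrial natriuretic peptide, had 10, 0 and 8 UMIs in Atf3_high and 4, 6 and 13 in Atf3_low (−1.25, and from −1.77 to −0.24 leaving out 1 library). *Npr1*, the receptor of both peptides, had 18, 1 and 8 UMIs in Atf3_high and 11, 1 and 0 in Atf3_low (0.67, −0.17 without Atf3_high replicate 1 and 3.06 without Atf3_low replicate 1). In Atf3_high replicate 2, 63 *Nppa* UMIs stood beside 0 UMIs of *Corin* and 1 of *Npr1*. The median was −0.35, with 4 genes lower and 2 higher, and it turned to 0.38 when scaled to cardiomyocyte markers.

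No difference was detected for the partners of Ankrd1 either. Of 10 partners and relatives 9 were in the table (*Ankrd23* has no row and was not analysed here) and 8 were tested. *Ttn*, the titin gene, was at 1763 ± 294.2 against 1837 ± 771.6 CPM (log2 fold change −0.06). *Csrp3*, a muscle LIM protein of the Z-disc, stood at −0.48 and *Des*, the intermediate filament desmin, at 0.03. None passed the test, and the median of −0.05 turned to 0.14 with library size scaling and to 0.55 when scaled to cardiomyocyte markers.

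Transcription factors known to act on natriuretic peptide promoters were counted at low levels. All 16 of the list were in the table and 15 were tested, of which 10 had log2 fold changes below 0 and 5 above, with a median of −0.22 that turned to 0.48 when scaled to cardiomyocyte markers. The median was −0.45 without Atf3_high replicate 1, −0.75 without replicate 2 and −1.01 without replicate 3 of that group, and −0.58 without Atf3_low replicate 1. *Tead1*, which binds MCAT elements, was the most abundant (−0.22). *Gata4*, which binds GATA elements, had 15, 3 and 15 UMIs in Atf3_high and 16, 13 and 14 in Atf3_low (−1.06). Every Atf3_high level lay below every Atf3_low level, as for 3 of the 16 factors. The others were *Myocd* (0, 0 and 1 against 7, 2 and 1 UMIs) and *Tbx5* (0 in all 3 against 6, 1 and 1 UMIs), which was too rare to test. Of the 7665 genes tested, which leave out *Tbx5*, 840 (11%) had no overlap in either direction, 542 of them with every Atf3_high level above. *Mef2a* stood at 0.10. *Myocd*, the coactivator of serum response factor, was lower at an unadjusted p only (log2 fold change −3.30, edgeR adjusted p = 0.819, 11 UMIs in all). No factor passed an adjusted p of 0.05.

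No other gene of the stretch and hypertrophy response passed an adjusted p of 0.05 in the main test. All 22 were in the table, and of 18 tested 15 had log2 fold changes above 0, as had 4233 of all 7665 genes tested. Their median was 0.75, against 0.11 over all genes, and it was 0.49 without Atf3_high replicate 1, 0.38 without Atf3_low replicate 3 and 1.61 when scaled to cardiomyocyte markers. *Gdf15*, a stress cytokine, came nearest with 76, 36 and 11 UMIs in Atf3_high and 9, 6 and 3 in Atf3_low (log2 fold change 2.44, standard error 0.62, edgeR adjusted p = 0.223). Its CPM overlapped between the groups. It was called when scaled to cardiomyocyte markers (3.46, adjusted p = 0.00315) and without Atf3_high replicate 3 (2.95, 0.0179), with adjusted p-values up to 0.9996 leaving out another library. *Xirp2* (0.96) and *Ccn2* (258 ± 120 against 109 ± 65.7 CPM) were higher, and *Fhl2* (−1.02) lower, at an unadjusted p only. With *Gdf15*, 3 of the 18 were higher and 1 lower at an unadjusted p under 0.05 in edgeR. Over all 7665 genes tested, 272 were higher and 172 lower. *Xirp2* was called when scaled to cardiomyocyte markers (1.90, adjusted p = 0.0332), and *Fhl2* without Atf3_high replicate 3 (−1.82, adjusted p = 0.0496). *Acta1*, the skeletal actin of the fetal gene program and the most abundant of the list, was at 3023 ± 1004 against 2081 ± 1335 CPM (0.53) and did not pass.

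Genes were ranked by how closely their log2 levels followed each of the 3 over the 6 libraries, among 1877 genes with at least 60 UMIs, as a description. The 5 nearest *Nppa* were *Stau2* (Pearson correlation 0.972), *Arhgef2* (0.961), *Rps19* (0.952), *Rack1* (0.95) and *Tgm2* (0.947). For *Nppb* they were *Qrich1* (0.931), *Actr1b* (0.919), *Txnl1* (0.917), *Cystm1* (0.904) and *Prdx1* (0.887). For *Ankrd1* they were *Emc7* (0.979), *Dcn* (0.964), *Ndufaf4* (0.952), *Clic5* (0.947) and *Tmed2* (0.942). No gene was on more than 1 of the 3 lists. Without Atf3_high replicate 2 the 5 named for *Nppa* had correlations with it from 0.868 to 0.948, and 0 of them stayed among its nearest 5, with 2 staying for *Nppb* and 1 for *Ankrd1*. Without Atf3_high replicate 1 it was 4 for *Nppa*, 0 for *Nppb* and 0 for *Ankrd1*, and without replicate 3 it was 4, 1 and 2. *Dcn*, near *Ankrd1*, is also among the fibroblast markers.

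*Nppa* and *Nppb* lie next to each other, a tandem pair on the same strand. In the GENCODE annotation of GRCm38, *Nppb* (ENSMUSG00000029019) is at chr4:147985788-147987205 and *Nppa* (ENSMUSG00000041616) at chr4:148000722-148002079, both on the plus strand with 13516 bases between them. *Ankrd1* (ENSMUSG00000024803) is at chr19:36111961-36120099 on the minus strand. Of 12 other genes annotated within 100 kb of *Nppa* or *Nppb*, 6 were in the table and tested, and none had an unadjusted p under 0.05. Among them were *Mfn2* (log2 fold change 0.02), *Plod1* (0.39), *2510039O18Rik* (0.15), *Clcn6* (−2.32, 11 UMIs) and *Agtrap* (1.23, 18 UMIs). Levels of *Agtrap* did not overlap between the groups, as for *Nppa* and for 7.07% of all genes tested with every Atf3_high level above. The antisense gene *Gm13054* overlaps *Nppa*, has no row and was not analysed here, and since the strand setting of the counting was not given, its reads could not be told from those of *Nppa*. Near *Ankrd1*, 1 of 4 annotated genes was in the table, *Rpp30*, with 7 UMIs and no test.

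Because *Nppa* and *Nppb* are neighbours whose levels were unlike, bases before their RefSeq starts are shown. RefSeq promoters of GRCm38.p6, from 250 bases before to 50 after each start, were matched for all 3 genes and searched on both strands for 6 short motifs. The RefSeq start of *Nppa* (148000722) is the GENCODE one, whereas those of *Nppb* (147985900) and *Ankrd1* (36119844) lie inside the longer GENCODE genes. Among all 32851 promoters of this length, the cyclic AMP response element TGACGTCA was in 1.79%, the AP-1 element TGAGTCA in 5.20%, the GATA elements AGATAA in 11.2% and TGATAA in 9.05%, the MCAT element CATTCC in 14.7% and the TATA box TATAAA in 13.6%. Neither TGACGTCA nor TGAGTCA was in any of the 3 windows, which says only that these letters are not there. *Nppa* held 1 TGATAA (chr4:148000600-148000605) and 1 TATAAA (chr4:148000713-148000718). *Nppb* held 1 MCAT element, 1 of either GATA element and 1 TATA box, and *Ankrd1* held 2 MCAT elements and 1 of the GATA elements with a leading A. Each match is a description of letters, not of a bound site.

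The 250 bases before the RefSeq start of *Nppa* (chr4:148000472-148000721, plus strand) and the stretches with matches before the RefSeq starts of *Nppb* (chr4:147985794-147985822 and chr4:147985868-147985875, plus strand) and *Ankrd1* (chr19:36120048-36120055, chr19:36119961-36119968 and chr19:36119885-36119892, minus strand) read as follows, 5′ to 3′ on the strand of the gene, with capitals marking the GATA, MCAT and TATA matches, or their reverse complements GGAATG and TTATCT. The stretches of *Nppb* and *Ankrd1* overlap an annotated UTR in GENCODE, and the *Nppa* bases overlap none.
Nppa: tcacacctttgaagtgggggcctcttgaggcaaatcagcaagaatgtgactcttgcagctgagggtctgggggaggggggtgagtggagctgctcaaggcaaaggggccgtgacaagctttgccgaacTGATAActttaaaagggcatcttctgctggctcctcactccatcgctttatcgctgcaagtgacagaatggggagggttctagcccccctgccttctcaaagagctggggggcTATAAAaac
Nppb, stretch 1: aGGAATGcagcTGATAAatcagAGATAAc
Nppb, stretch 2: gTATAAAa
Ankrd1, stretch 1: aGGAATGa
Ankrd1, stretch 2: tGGAATGa
Ankrd1, stretch 3: aTTATCTc
In *Nppb* 1 MCAT and 2 GATA matches lie within 29 bases, and both *Nppb* and *Nppa* have 1 TATA match.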

How the data were processed

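Values are deposited counts of UMIs per gene and library, which the authors left without normalization. The submitters' processing notes name HISAT2 2.1.0, UMI-tools 1.0.0, featureCounts 1.6.4 and GRCm38. The annotation, strand setting and treatment of multimapped reads were not given in the sources used here. Libraries were grouped by their labels, and 0 columns were left without a sample. Genes with at least 10 UMIs in total were normalized by TMM and tested with the quasi-likelihood test of edgeR 4.0.16 in R 4.3.3, without covariates, with Benjamini-Hochberg adjustment. The tests were checked on simulated data, but the outcome is not reported here and nothing rests on it. The log2 ratio was compared by an exact permutation test in scipy 1.17.1. Likeness was the Pearson correlation of log2(CPM + 4). Alternatives were DESeq2 1.42.0, limma 3.58.1 (voom and trend), other scalings and filters, thinning, a replicate block and leaving out each library. List medians, correlations and spread were recomputed under alternatives chosen after seeing the data. Named were the 3 genes, the 3 of highest mean CPM in each list, those past a p threshold, the 5 nearest genes, neighbours within 100 kb, and *Atf3*, *Ndufs6*, *Ddx3y*, *Eif2s3y* and *Xist*, with *Kcnj3*, *Pde9a* and *Tbx5* added for their groups without overlap. Some genes that this rule takes are not reported here. The 3 genes and all lists were chosen with earlier results of these data known. Within a group no pair of libraries was a duplicate (chi-square over its degrees of freedom at least 3.55), and each counted as a replicate.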

Additional observations from a re-analysis of the deposited data

How the results depend on the processing

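*Nppa* was higher in Atf3_high under all 17 alternatives and kept its call under 7. Its log2 fold change was 2.68 with limma-voom (adjusted p = 0.479), 2.42 with limma-trend (0.0697), 3.25 with filterByExpr (0.228), 3.24 with a minimum of 30 UMIs (0.293) and 3.21 after thinning (0.0743), and from 1.91 to 3.78 leaving out 1 library, with adjusted p-values from 1.77e-04 to 0.938 over all alternatives. *Nppb* turned above 0 with library size scaling (0.21), scaling to cardiomyocyte markers (0.88) and no filter (0.062), and ranged from −0.36 to 0.15 leaving out 1 library. *Ankrd1* ranged from −0.21 to 0.23 leaving out 1 library. Neither gene was called under any alternative. The cause of these shifts was not tested. The difference in the log2 ratio of *Nppa* to *Nppb* kept its direction under all 10 alternatives, from 1.84 to 3.39.

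Genes called numbered 7 in the main test, 18 scaled to cardiomyocyte markers, 12 with DESeq2, 3 with a minimum of 30 UMIs and 4 after thinning, and from 0 to 11 leaving out 1 library. The 0 came from edgeR without Atf3_low replicate 1, where 477 genes had an unadjusted p under 0.05. Genes at an unadjusted p under 0.05 numbered 444 in the main test (5.79% of those tested), 1085 scaled to cardiomyocyte markers (14.2%), 249 with DESeq2 (3.25%), 119 of 1988 with filterByExpr (5.99%), 202 of 3756 with a minimum of 30 UMIs (5.38%) and from 282 (4.27%) to 477 (6.79%) leaving out 1 library. Of them 61.3% were higher in the main test, 79.8% with library size scaling, which moved the median of all genes to 0.31, and 96.9% scaled to cardiomyocyte markers.

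Same-numbered libraries had correlations of their deviations of 0.0851, 0.000876 and 0.0656. Atf3_high replicates 1 and 3 correlated best with the Atf3_low library of their own number. Atf3_high replicate 2 correlated best with Atf3_low replicate 1 (0.0103). The study's legend names a pairwise two-tailed t test, without saying whether libraries were paired. All these correlations were small and left the pairing undecided, so the main test took no pairs. In sex-linked RNA, Atf3_high replicate 2 (8 UMIs of *Ddx3y*, 8 of *Eif2s3y* and 0 of *Xist*) was unlike Atf3_low replicate 2 (0, 0 and 13). A block on the replicate number nevertheless joined them. With that block, 24 genes were called in edgeR. *Nppa* had a log2 fold change of 2.97 (adjusted p = 3.95e-04), *Nppb* of −0.06 and *Ankrd1* of 0.07. *Gdf15* (2.35, adjusted p = 0.0143), *Fhl2* (−1.25, 0.0263) and *Actc1* (−1.20, 0.00858) were called as well. The ratio differed by 2.80 (exact sign-flip permutation p = 0.25, the smallest possible).

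Among medians of lists, the natriuretic pathway turned to 0.38, Ankrd1 partners to 0.55 and cardiac transcription factors to 0.48 scaled to cardiomyocyte markers. Ankrd1 partners turned to 0.14 with library size scaling and ranged from −0.365 to 0.0871 leaving out 1 library. On that basis the natriuretic pathway ranged from −0.50 to −0.21, transcription factors from −1.01 to −0.23 and the stretch response from 0.38 to 1.00. Of the 5 genes nearest each gene, 3 for *Nppa*, 3 for *Nppb* and 4 for *Ankrd1* were shared with the 5 at a minimum of 100 UMIs, and 1, 2 and 1 with those by Spearman correlation. Without Atf3_high replicate 1 or 2 (n = 5), the Pearson correlation of *Nppa* with *Nppb* was −0.551 or 0.29, of *Nppa* with *Ankrd1* −0.652 or 0.0864, and of *Nppb* with *Ankrd1* −0.0601 or 0.523.

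Depth limited *Nppa* most, with 11 UMIs over the Atf3_low libraries. In replicate 1 of that group its 2 UMIs were under the 3 that mark the floor.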

Other observations

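Markers of further cell types were read beside the natriuretic peptides and none of these lists held a gene past an adjusted p of 0.05 in edgeR. Endothelial markers, all 10 in the table and led by *Fabp4*, *Ly6c1* and *Cdh5*, had a median log2 fold change of 0.61 over 9 tested genes, and from 0.21 to 0.54 leaving out 1 library. Mural cell markers, 9 of 10 in the table and led by *Rgs5*, *Abcc9* and *Acta2*, also had a median of 0.61, over 8 tested genes, and from 0.24 to 0.92 leaving out 1 library, with *Abcc9* lower at an unadjusted p only (−1.31). *Vtn* has no row and was not analysed here.

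Macrophage markers, all 10 in the table and led by *Lyz2*, *C1qc* and *C1qa*, summed to 71, 25 and 42 UMIs in Atf3_high and to 36, 43 and 22 in Atf3_low. Their median over 7 tested genes was −0.08, and it turned to 0.12 with library size scaling and 0.82 scaled to cardiomyocyte markers, and ranged from −0.46 to 0.42 leaving out 1 library. Endocardial markers, led by *Cytl1*, *Nfatc1* and *Vwf*, summed to 1, 1 and 17 UMIs in Atf3_high and to 4, 7 and 12 in Atf3_low, too few for any but *Cytl1* to be tested (−2.13). Of the erythrocyte markers 2 of 6 were in the table, *Hbb-bs* with 57 UMIs (−0.12, 0.09 with library size scaling, 0.81 scaled to cardiomyocyte markers, and from −1.03 without Atf3_high replicate 2 to 0.53 without Atf3_low replicate 1) and *Hba-a2* with 1, and *Hbb-bt*, *Hba-a1*, *Alas2* and *Slc4a1* have no row and were not analysed here.

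The 4 tested conduction system markers had a median of −0.03. It turned to 0.17 with library size scaling, 0.68 scaled to cardiomyocyte markers and 0.65 with the replicate number as a block. Leaving out 1 library it ranged from −2.93, with 1 gene then tested, to −0.24. *Cytl1* was counted in replicate 3 of each group alone, at 4 UMIs in Atf3_high and 9 in Atf3_low. This pair of libraries is not known to share a heart.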
